A study of Mus musculus with 137 samples.

Results

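The genes described here are 33 genes of glucose uptake, glycolysis, lactate handling, the hypoxia-inducible factor (HIF), the tricarboxylic acid (TCA) cycle and the exits of citrate and aconitate from that cycle. They were chosen by name, and all 33 stand among the 34573 gene symbols counted and passed the filter on low counts in every cohort. RNA was measured in bone marrow-derived macrophages (BMDMs), which are grown from mouse marrow with the growth factor M-CSF. Lipopolysaccharide (LPS) and IFN-gamma, each at 100 ng/ml, were given for 6 h or 24 h, and resting cells (0 h) got neither. In cohorts KO1 and KO2 the KO cells were Beclin1flox/flox-LysM-Cre+ and the WT cells Beclin1flox/flox-LysM-Cre-, so that all cells of these cohorts carried the floxed alleles. In cohort KI the cells were Beclin1F121A/F121A (F121A) or littermate WT. All mice were 7 weeks old. LysM-Cre is driven from the lysozyme locus of myeloid cells and need not recombine in every cell, and the KO cells alone carried it. KO1 had 3 cultures per genotype, each with 3 repeats at each time that were summed (n = 3 per group), each KO2 group held 8 libraries other than WT at 24 h with 7, and each KI group held 6.

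Levels are CPM, a gene's counts scaled to the same total of counts in genes in every sample, as mean ± SD over cultures or libraries. Log2 fold changes, with their standard error after the ± sign, come from edgeR's quasi-likelihood test after TMM scaling. TMM scales libraries so that a trimmed mean of the log ratios of genes lies near 0, and it leaves single genes free to change. A gene is called at a Benjamini-Hochberg adjusted p under 0.05 over all genes tested. The labels do not say whether KO2 and KI libraries came from separate mice or cultures, so p-values measure only the spread between these samples. Library totals ran from 1448218 to 15627379 counts over the 137 libraries. The scales differ over time: with library totals in place of TMM, the median gene moved by -1.02, -0.82 and -1.20 (log2; KO1, KO2 and KI) between 0 h and 6 h in WT. It moved by -1.02, -0.44 and -0.88 between 0 h and 24 h, and by 0.38 and 0.32 between 6 h and 24 h in KO2 and KI. Between KO and WT it moved by 0.13 at rest and -0.12 at 6 h in KO1 and by 0.19 and 0.21 in KO2. Fold changes are therefore relative to the bulk of genes, and genes whose direction turns on library totals are named.

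The targeted gene Becn1 was lower in KO cells, at 20.0 ± 8.19 CPM in KO and 51.2 ± 8.28 CPM in WT at rest in KO1 (SD, n = 3 each). In KO2 it was 4.87 ± 1.53 CPM in KO and 42.5 ± 5.76 CPM in WT (SD, n = 8 each). Its log2 fold change at 0, 6 and 24 h was -1.51 ± 0.20, -1.52 ± 0.21 and -1.41 ± 0.20 in KO1 and -3.28 ± 0.15, -3.31 ± 0.16 and -2.63 ± 0.16 in KO2, all called. In KI, where the allele changes a residue, it was -0.08 ± 0.09, 0.05 ± 0.09 and -0.04 ± 0.09, none called. In KO2 the male-specific gene Ddx3y was found in all KO groups (mean 16.7 CPM at rest, against 0.170 CPM in WT) and the female-specific Xist in all WT groups (0.726 CPM in KO against 224 CPM in WT at rest). In this cohort the effect of genotype and that of sex cannot be told apart. Macrophage markers were present in every group (6 of 7 listed were found), with a summed level at rest of 20597 to 25324 CPM in KO2 KO and 43879.8 to 52469 CPM in KO2 WT libraries. The list includes Lyz2, the gene of the lysozyme locus that drives Cre in KO cells, and its part in the sum was not tested. In KI the sum was 64101 to 98384 CPM in F121A and 99856 to 104474 CPM in WT libraries. In KO1 that sum was 23454 to 26782 CPM in KO and 25364 to 47424 CPM in WT cultures. The sum of 10 neutrophil markers there was 299.9 to 1326 CPM in KO and 145 to 227 CPM in WT cultures, with none of the 10 at 0. The sum of 3 megakaryocyte markers at rest was 1085 to 3439 CPM in KO and 654 to 3042 CPM in WT cultures of KO1. It was 77.0 to 120.6 CPM in KO and 154 to 225 CPM in WT libraries of KO2, and 28.2 to 36.95 CPM in F121A and 17.7 to 23.6 CPM in WT libraries of KI. The 3 markers are Pf4, Itga2b and Gp9. In KO2 WT at rest Gp9 had no count, so the sum there came from the others, and it need not mark megakaryocytes. B cell, erythroid and mast cell lists did not exceed 1.79 CPM in any library or culture. The part of these marker differences in the results below was not tested. In CPM before TMM, F121A at 0 h replicate 5 stood apart on 15 of the 33 genes and KO2 KO at 6 h replicate 7 on 7, and results that rest on them are also given without them. For 2 libraries at 6 h (1 KO repeat of KO1 and 1 WT library of KI) the labels disagree on the time. They were grouped by title, and a result that changes without them is named.

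Glycolysis breaks glucose down to pyruvate in the cytosol, and lactate dehydrogenase turns pyruvate into lactate, which leaves the cell through monocarboxylate transporters. The TCA cycle oxidises carbon from pyruvate in mitochondria, with citrate, isocitrate, succinate, fumarate and malate as its intermediates. Macrophages stimulated with LPS and IFN-gamma are known for high glycolysis under HIF, for an interrupted TCA cycle and for making itaconate from aconitate by the enzyme encoded by Irg1 (now Acod1). Beclin1 is a subunit of a lipid kinase complex that starts autophagy.

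Windows of 250 bases before to 50 bases after an annotated start were taken from RefSeq (GRCm38.p6) for 32 of the 33 genes, 47 windows in all. They were searched on both strands for the core of the hypoxia response element, ACGTG or GCGTG, and for the longer motifs of NF-kappaB (kappaB) and STAT factors (TTCNNNGAA, GAS). ACGTG stood in 26 of the 47 windows (55.3%), against 19.6% of 32851 windows of all genes, and GCGTG in 28 (59.6%), against 32.4%. ACGTG lies within the E-box CACGTG, which 7 of the 47 windows held (14.9%, against 7.15%). The kappaB motif matched 1 window, that of Pgk1 (2.13%, against 1.47%), and TTCNNNGAA none (0%, against 8.30%). A match describes letters and is not a binding site, and windows of a gene can overlap. The windows of all genes were not matched for base content. By gene, 19 of the 32 held ACGTG and 21 held GCGTG, among them genes that rose and genes that fell after stimulation. Of the genes lower at 6 h in all cohorts, Ogdh, Sdha and Mdh1 held ACGTG. Idh1, Idh2, Ogdh, Sdha, Sdhb, Fh1 and Mdh2 held GCGTG. The windows of 3 glycolytic genes that rose together and of Irg1, the gene with the highest rise, are shown on the plus strand, 5′ to 3′, with ACGTG and GCGTG and their reverse complements in capitals. The windows lie at chr7:46845554-46845853 (Ldha), chrX:106186850-106187149 (Pgk1), chr11:120948817-120949116 (Slc16a3) and chr14:103046762-103047061 (Irg1).
Ldha: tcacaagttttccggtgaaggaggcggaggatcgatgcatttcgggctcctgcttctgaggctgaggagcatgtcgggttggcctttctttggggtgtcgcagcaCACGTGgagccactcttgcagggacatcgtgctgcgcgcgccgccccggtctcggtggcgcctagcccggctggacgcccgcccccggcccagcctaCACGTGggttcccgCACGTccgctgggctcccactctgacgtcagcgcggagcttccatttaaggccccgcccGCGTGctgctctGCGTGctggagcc
Pgk1: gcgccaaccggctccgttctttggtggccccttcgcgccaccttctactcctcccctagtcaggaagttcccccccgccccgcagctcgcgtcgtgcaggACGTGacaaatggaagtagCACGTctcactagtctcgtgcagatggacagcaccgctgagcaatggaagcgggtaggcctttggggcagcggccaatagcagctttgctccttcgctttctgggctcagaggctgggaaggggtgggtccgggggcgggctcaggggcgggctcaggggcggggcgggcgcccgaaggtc
Slc16a3: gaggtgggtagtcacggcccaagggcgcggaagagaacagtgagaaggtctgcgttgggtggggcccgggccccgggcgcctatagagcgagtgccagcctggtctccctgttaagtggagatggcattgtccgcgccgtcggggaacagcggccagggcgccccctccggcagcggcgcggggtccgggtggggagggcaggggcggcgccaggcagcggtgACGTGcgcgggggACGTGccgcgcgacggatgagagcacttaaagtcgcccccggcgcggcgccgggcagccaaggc
Irg1: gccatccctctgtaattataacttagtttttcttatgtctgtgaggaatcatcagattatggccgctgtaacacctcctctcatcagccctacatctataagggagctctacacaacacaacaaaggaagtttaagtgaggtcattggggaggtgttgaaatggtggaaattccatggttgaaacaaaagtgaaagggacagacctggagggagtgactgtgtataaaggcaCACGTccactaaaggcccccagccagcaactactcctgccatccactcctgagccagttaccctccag
The Ldha window held 5 ACGTG and 2 GCGTG matches, those of Pgk1 and Slc16a3 held 2 ACGTG each, and that of Irg1 held 1. Matches are counted per strand, so that each of the 2 CACGTG stretches of the Ldha window counts as 2 ACGTG matches.

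In WT macrophages, stimulation changed most of the 33 genes. The listed genes from glucose uptake to lactate and the listed TCA cycle genes moved apart. Glycolysis genes outside the list had more lower than higher calls at 6 h, with median log2 fold changes of -0.91, -0.82 and -0.77 (KO1, KO2 and KI). Of the 18 genes from glucose uptake to lactate export, 14 were higher and 1 lower at 6 h than at rest in KO1, 17 and 0 in KO2, and 16 and 1 in KI. Of the 10 TCA cycle genes, 0 were higher and 9 lower in KO1, 1 and 9 in KO2, and 1 and 8 in KI. These 10 include Idh1 and Mdh1, whose enzymes are cytosolic. Over all 33 genes the counts were 17 higher and 10 lower in KO1, 21 and 9 in KO2 and 20 and 11 in KI, where 25.7% of all genes tested were called higher and 31.1% lower in KO1, 32.5% and 38.3% in KO2 and 36.7% and 36.8% in KI. The median log2 fold change of the 18 genes was 1.41, 2.17 and 2.21 and that of the 10 TCA cycle genes -1.38, -0.72 and -0.70, beside -0.09, -0.11 and 0.00 over all genes (KO1, KO2 and KI). With library totals the counts over the 33 genes became 10 higher and 14 lower, 18 and 14, and 15 and 16, and Hk1 (KO1 and KI), Ldha (KO1), Aldoa (KO2) and Eno1 (KI) turned lower, as did Vegfa (KO1), Pdk1 and Cs (KO2 and KI). Marker sums moved over the same times: the macrophage sum in WT had medians of 34302, 14952 and 10328 CPM at 0, 6 and 24 h in KO1, 47394, 16172 and 19246 CPM in KO2 and 102396, 36056 and 14470.3 CPM in KI. The megakaryocyte sum had medians of 2505, 1479 and 142 CPM in KO1, 177, 88.2 and 40.7 CPM in KO2 and 20.3, 8.52 and 3.87 CPM in KI. The neutrophil sum had medians of 197, 146 and 22.3 CPM in KO1, 5.94, 10.99 and 16.7 CPM in KO2 and 49.1, 19.9 and 11.7 CPM in KI. Their part in the time course was not tested. In bulk RNA, fewer cells of a type and less RNA per cell cannot be told apart.

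At 24 h the rise from uptake to lactate was wider, with 17, 18 and 18 of the 18 genes called higher than at rest and 0 lower, whereas 3 TCA cycle genes were higher in each cohort and 4, 6 and 6 lower. All 33 genes gave 23 higher and 4 lower calls in KO1, 24 and 6 in KO2 and 25 and 7 in KI, where 21.3% and 20.6%, 29.6% and 29.7%, and 33.9% and 29.9% of all genes were called higher and lower. At 24 h the median log2 fold change was 2.78, 2.22 and 3.78 over the 18 genes and -0.34, -0.37 and -0.54 over the TCA cycle genes, beside -0.11, -0.03 and 0.03 over all genes (KO1, KO2 and KI). The comparisons of 6 h and of 24 h with rest share the resting libraries. With library totals the split in KO1 at 24 h became 18 higher and 9 lower, and Cs and Sdhb (all cohorts), Pdk1 (KO1) and Mdh2 (KI) turned lower. Between 6 h and 24 h, 12, 7 and 13 of the 18 genes rose and 4, 4 and 2 fell, and 7, 7 and 5 of the TCA cycle genes rose and 1, 0 and 2 fell. Over all 33 genes 19 rose and 6 fell in KO1, 17 and 6 in KO2 and 21 and 5 in KI, beside 28.7% and 25.9%, 31% and 28%, and 33.6% and 31.8% of all genes, and with library totals the split in KO2 became 23 and 4. Called in the same direction in all 3 cohorts were 16 higher and 8 lower genes at 6 h, 23 and 4 at 24 h, and 12 and 3 between 6 h and 24 h.

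**Figure D1:**
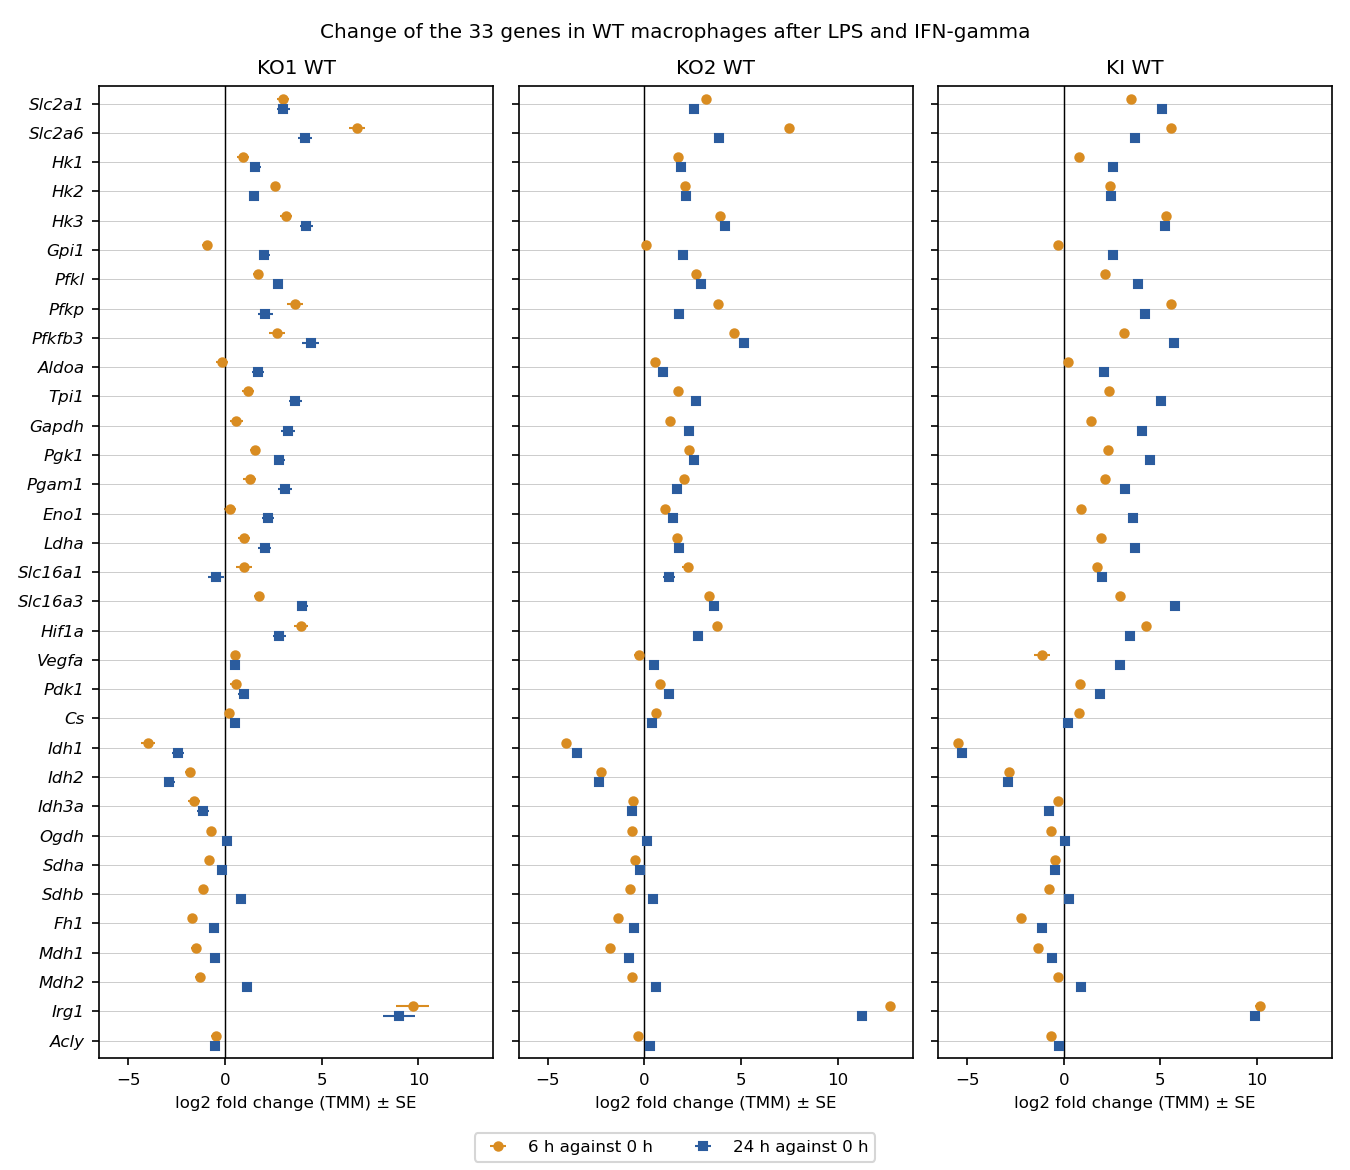
Log2 fold change after TMM scaling (x axis, with standard error bars) of each of the 33 genes (y axis) in WT macrophages of each cohort at 6 h (circles) and 24 h (squares) against rest. Irg1 lies far to the right, at 9.70, 12.71 and 10.13 at 6 h, glycolytic genes lie mostly right of 0 and Idh1 is the leftmost gene at 6 h at -3.99, -4.05 and -5.45.

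The glucose transporters showed different time courses. Slc2a6, a member of the glucose transporter family found on lysosomes, rose at 6 h by 6.83 ± 0.43 in KO1, 7.46 ± 0.14 in KO2 and 5.56 ± 0.14 in KI. It was lower again at 24 h than at 6 h (-2.70 ± 0.35 in KO1, -3.63 ± 0.12 in KO2 and -1.89 ± 0.12 in KI). In KO1 the WT cultures had 7.45, 15.7 and 12.4 CPM at rest, 546, 673 and 721 CPM at 6 h and 95.2, 78.2 and 133 CPM at 24 h, so each time stood apart from the others. Slc2a1, which takes up glucose at the plasma membrane, rose at 6 h by 2.99 ± 0.33 in KO1, 3.19 ± 0.13 in KO2 and 3.45 ± 0.16 in KI. At 24 h its difference from 6 h was 0.03 ± 0.31 in KO1, which did not pass the test, -0.65 ± 0.12 in KO2, where it fell, and 1.64 ± 0.15 in KI, where it rose. Per kilobase of exon, Slc2a6 had 691 ± 139 CPM at 6 h in KI WT cells and Slc2a1 31.4 ± 3.72 CPM (SD, n = 6). Lengths are the union of all annotated exons of a gene, which can exceed the transcript that the cells make.

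Among the hexokinases, which trap glucose by phosphorylation, Hk3 had the highest level per kilobase in WT cells at all times and in all cohorts. In KI WT cells Hk3 had 25.6 ± 2.43, 429 ± 73.3 and 515 ± 61.4 CPM per kilobase at 0, 6 and 24 h, while Hk2 had 5.05 ± 1.07, 11.5 ± 2.05 and 15.1 ± 2.66, and Hk1 8.59 ± 2.39, 6.54 ± 3.06 and 27.5 ± 11.4. The log2 fold change of Hk3 at 6 h was 3.13 ± 0.31 in KO1, 3.93 ± 0.14 in KO2 and 5.28 ± 0.13 in KI. Hk2, the HIF-responsive hexokinase, rose by 2.57 ± 0.21 in KO1, 2.11 ± 0.18 in KO2 and 2.39 ± 0.12 in KI, and Hk1, the form of most tissues, was at 0.93 ± 0.29 in KO1, 1.75 ± 0.21 in KO2 and 0.80 ± 0.25 in KI. Per kilobase, the order of the phosphofructokinases turned over time. The platelet form Pfkp had more CPM per kilobase than the liver form Pfkl at 6 h (103 ± 9.17 and 16.9 ± 4.09 in KI WT), and less at 24 h (52.1 ± 10.4 and 70.5 ± 11.6). The turn rests on the exon unions, 13401 bases for Pfkp and 6675 for Pfkl. In CPM at 24 h, KI WT libraries ran from 531 to 836 for Pfkp and from 382 to 563 for Pfkl. Pfkp fell between 6 h and 24 h in each cohort (-1.56 ± 0.38 in KO1, -2.01 ± 0.13 in KO2 and -1.32 ± 0.11 in KI), and Pfkl rose (1.04 ± 0.24 in KO1, 0.27 ± 0.11 in KO2 and 1.74 ± 0.13 in KI). Reads of Pfkp can be shared with a near-identical stretch of another gene, whose counts were 2.62% of those of Pfkp.

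Pfkfb3, whose enzyme makes the main activator of phosphofructokinase, rose at both times in every cohort. Its log2 fold change at 24 h against rest was 4.43 ± 0.45 in KO1, 5.16 ± 0.22 in KO2 and 5.69 ± 0.15 in KI. In KI the WT libraries ran from 19.9 to 28 CPM (median 24.5) at rest, from 85.2 to 100.2 CPM (median 90.1) at 6 h and from 495 to 889 CPM (median 683) at 24 h, with no overlap between times. Of the lower pathway, Tpi1, Pgk1 and Pgam1 were called higher in all 3 cohorts at 6 h already, and Gapdh, Aldoa and Eno1 in all 3 at 24 h but not at 6 h. Triosephosphate isomerase Tpi1 rose by 1.17 ± 0.32 in KO1, 1.72 ± 0.14 in KO2 and 2.33 ± 0.12 in KI at 6 h and by 3.63 ± 0.34 in KO1, 2.65 ± 0.14 in KO2 and 5.01 ± 0.13 in KI at 24 h. Gapdh, which yields the NADH that lactate dehydrogenase uses up, was not called at 6 h in KO1 (0.59 ± 0.32) and rose in KO2 (1.30 ± 0.12) and KI (1.42 ± 0.10). At 24 h Gapdh was higher in all cohorts (3.26 ± 0.35 in KO1, 2.3 ± 0.13 in KO2 and 4.04 ± 0.11 in KI), a gene often used as a constant reference. Phosphoglucose isomerase Gpi1 was lower at 6 h in KO1 (-0.92 ± 0.26) and KI (-0.28 ± 0.09) and higher at 24 h in all 3 cohorts (2.03 ± 0.27 in KO1, 1.97 ± 0.12 in KO2 and 2.56 ± 0.10 in KI).

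The phosphoglycerate kinase gene Pgk1 rose by 1.55 ± 0.27 in KO1, 2.29 ± 0.15 in KO2 and 2.29 ± 0.11 in KI at 6 h, and the mutase gene Pgam1 by 1.27 ± 0.34 in KO1, 2.03 ± 0.17 in KO2 and 2.13 ± 0.12 in KI. Aldolase Aldoa and enolase Eno1 changed less: at 6 h Aldoa was called higher in KO2 (0.55 ± 0.11) only among the 3 cohorts, and Eno1 in KO2 (1.05 ± 0.12) and KI (0.91 ± 0.10), a direction that turned with library totals for Aldoa in KO2 and for Eno1 in KI. At 24 h Aldoa (1.70 ± 0.30 in KO1, 0.95 ± 0.11 in KO2 and 2.07 ± 0.11 in KI) and Eno1 (2.22 ± 0.33 in KO1, 1.5 ± 0.13 in KO2 and 3.57 ± 0.11 in KI) were higher in all 3 cohorts. Near-identical copies exist elsewhere in the genome for Gapdh (42 genes), Pgk1 and Eno1 (3 each), Pgam1 and Gpi1 (1 each), so that reads of these genes could be split. The most counted copies in the tables had 5.29% of the counts of Pgam1, 2.38% of those of Gpi1, 1.34% of those of Eno1, 0.740% of those of Gapdh and 0.682% of those of Pgk1.

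The lactate genes rose with the pathway. Ldha, which makes lactate, had 780.2 ± 38.0, 1277 ± 94.9 and 5503 ± 832 CPM in KI WT cells at 0, 6 and 24 h (SD, n = 6), and its log2 fold change at 24 h was 2.04 ± 0.33 in KO1, 1.77 ± 0.13 in KO2 and 3.70 ± 0.11 in KI. Slc16a3, the lactate exporter of glycolytic cells, rose by 1.77 ± 0.26 in KO1, 3.36 ± 0.13 in KO2 and 2.91 ± 0.16 in KI at 6 h and by 4.0 ± 0.28 in KO1, 3.58 ± 0.14 in KO2 and 5.74 ± 0.18 in KI at 24 h. In KO2 it had 77.4 ± 8.22, 454 ± 64.8 and 674 ± 53.6 CPM in WT at 0, 6 and 24 h (n = 8, 8 and 7). Slc16a1, the other lactate transporter, had a low level, at 5.81 ± 1.75 CPM at 6 h in KI WT. It was higher at 6 h in each cohort (0.98 ± 0.40 in KO1, 2.23 ± 0.30 in KO2 and 1.73 ± 0.18 in KI), and at 24 h it was called in KO2 and KI (1.26 ± 0.31 and 1.96 ± 0.17) and not in KO1 (-0.46 ± 0.42). The window of Ldha printed above holds the most hypoxia motifs of the 4 shown.

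Together the 18 genes from uptake to lactate took 0.497 ± 0.0243% of all counts at rest in KI WT cells, 0.967 ± 0.108% at 6 h and 2.78 ± 0.143% at 24 h (SD, n = 6). The shares were 0.759 ± 0.0298%, 1.28 ± 0.0492% and 1.85 ± 0.0957% in KO2 WT and 0.621 ± 0.192%, 0.624 ± 0.139% and 1.68 ± 0.138% in KO1 WT. In KO1 the shares at rest and at 6 h differed by less than their spread. The 10 TCA cycle genes took 0.168 ± 0.00453%, 0.0333 ± 0.00152% and 0.0526 ± 0.00466% in KI WT, lowest at 6 h. Of these, the cytosolic form Idh1 alone had 663 to 738 CPM at rest and 4.51 to 9.40 CPM at 6 h.

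**Figure D2:**
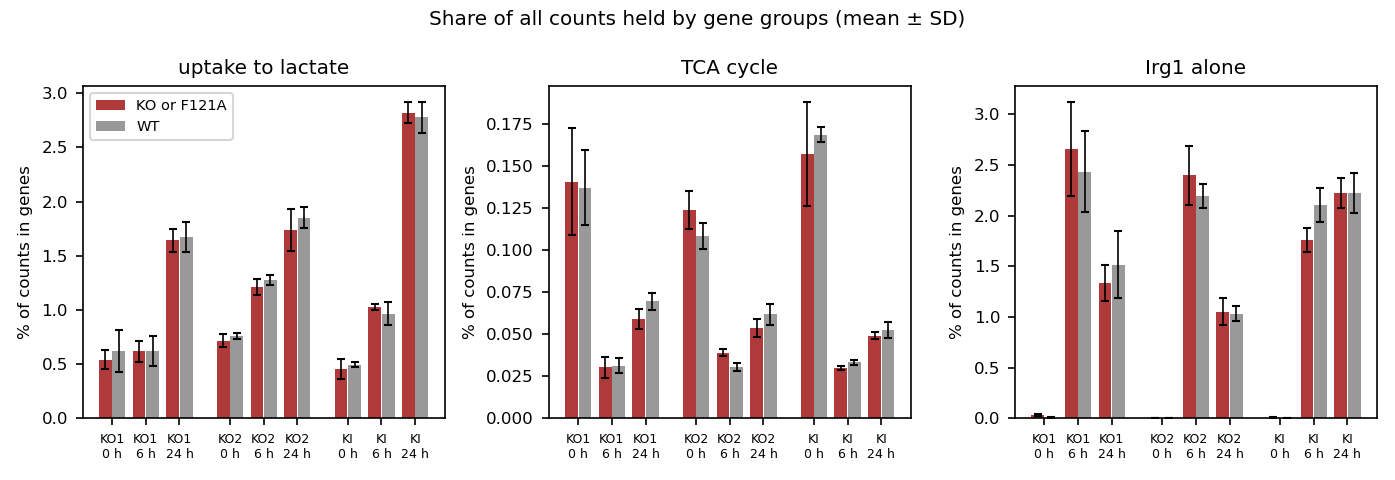
Percent of all counts in genes (y axis) held by the 18 genes from glucose uptake to lactate, the 10 TCA cycle genes and Irg1 alone, by cohort and time (x axis), as mean with SD bars for KO or F121A (red) and WT (grey). The share of the 18 genes is highest at 24 h in every cohort, that of the TCA cycle genes at 0 h, and that of Irg1 in WT is near 0 at rest and 2.43 ± 0.401% (KO1), 2.19 ± 0.118% (KO2) and 2.11 ± 0.168% (KI) at 6 h.

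Hif1a, the oxygen-sensitive subunit of HIF, rose by 3.93 ± 0.34 in KO1, 3.76 ± 0.14 in KO2 and 4.28 ± 0.10 in KI at 6 h. It was lower at 24 h than at 6 h in every cohort (-1.12 ± 0.31 in KO1, -1.01 ± 0.13 in KO2 and -0.86 ± 0.09 in KI). Pdk1, a HIF target whose kinase closes pyruvate dehydrogenase, was higher at 24 h in each cohort (0.96 ± 0.28 in KO1, 1.28 ± 0.17 in KO2 and 1.89 ± 0.12 in KI), a direction that turned with library totals in KO1 (-0.083). Vegfa, a HIF target that drives vessel growth, had less than 1 CPM per kilobase at 6 h in KO2 and KI WT cells (0.415 ± 0.152 and 0.0887 ± 0.0459). In KI it was lower at 6 h (-1.14 ± 0.43) and higher at 24 h (2.92 ± 0.26) than at rest, and in KO2 neither passed (-0.27 ± 0.27 and 0.51 ± 0.24). In KO1 Vegfa was called higher at 6 h (0.50 ± 0.21, adjusted p = 0.0478) and not at 24 h (0.50 ± 0.21). That call was lost with the culture number as a block (0.50, adjusted p = 0.0651), and the direction turned with library totals (-0.51). Of the other genes of the hypoxia pathway, 13 of 20 were higher and 2 lower at 6 h in KO1, 13 and 3 of 19 in KO2 and 12 and 4 of 20 in KI. The mitophagy gene Bnip3 led them, at 3.82 ± 0.35, 3.61 ± 0.14 and 3.78 ± 0.15, and the oxidase gene Ero1l was at 3.89 ± 0.28, 4.30 ± 0.14 and 6.43 ± 0.21 at 24 h.

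Among the genes listed under the TCA cycle, Idh1, which encodes the cytosolic isocitrate dehydrogenase that yields NADPH, had the lowest log2 fold change at 6 h in each cohort. In KO1 the WT cultures had 205, 312 and 145 CPM at rest, 9.36, 7.35 and 4.04 CPM at 6 h and 23.1, 17.7 and 19.4 CPM at 24 h. KI WT libraries ran from 663 to 738 CPM (median 683) at rest, from 4.51 to 9.40 CPM (median 7.14) at 6 h and from 6.89 to 10.7 CPM (median 10.3) at 24 h. Rest did not overlap either later time in these cohorts, and the log2 fold change at 6 h was -3.99 ± 0.35 in KO1, -4.05 ± 0.13 in KO2 and -5.45 ± 0.13 in KI. At 24 h it was -2.43 ± 0.32 in KO1, -3.51 ± 0.13 in KO2 and -5.26 ± 0.13 in KI. Its mitochondrial relative Idh2 was lower at 6 h (-1.79 ± 0.26 in KO1, -2.27 ± 0.14 in KO2 and -2.86 ± 0.20 in KI) and at 24 h (-2.88 ± 0.27 in KO1, -2.36 ± 0.14 in KO2 and -2.88 ± 0.19 in KI). Idh3a, the catalytic subunit of the NAD-dependent enzyme of the cycle, was lower at 24 h in each cohort (-1.14 ± 0.30 in KO1, -0.64 ± 0.12 in KO2 and -0.76 ± 0.15 in KI). At 6 h it was lower in KO1 and KO2 (-1.60 ± 0.31 and -0.60 ± 0.13) and did not pass in KI (-0.32 ± 0.15).

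The enzymes of the later steps were lower at 6 h, and at 24 h some stood at or above rest. Fumarase Fh1 was at -1.72 ± 0.21 in KO1, -1.37 ± 0.15 in KO2 and -2.20 ± 0.16 in KI at 6 h and at -0.55 ± 0.20 in KO1, -0.52 ± 0.14 in KO2 and -1.12 ± 0.13 in KI at 24 h. The succinate dehydrogenase subunit Sdhb was lower at 6 h (-1.13 ± 0.18 in KO1, -0.76 ± 0.09 in KO2 and -0.76 ± 0.09 in KI) and higher at 24 h than at 6 h (1.93 ± 0.19 in KO1, 1.21 ± 0.09 in KO2 and 1.05 ± 0.09 in KI). Against rest Sdhb was called higher at 24 h in all cohorts, a direction that turned with library totals in each (-0.22, -0.015 and -0.60). The catalytic subunit Sdha was lower at 6 h (-0.82 ± 0.18 in KO1, -0.47 ± 0.10 in KO2 and -0.47 ± 0.08 in KI), as was Ogdh of the oxoglutarate dehydrogenase complex (-0.73 ± 0.19 in KO1, -0.64 ± 0.10 in KO2 and -0.64 ± 0.10 in KI). The malate dehydrogenases fell at 6 h, cytosolic Mdh1 at -1.48 ± 0.26 in KO1, -1.79 ± 0.11 in KO2 and -1.33 ± 0.10 in KI and mitochondrial Mdh2 at -1.29 ± 0.24 in KO1, -0.67 ± 0.10 in KO2 and -0.32 ± 0.10 in KI. At 24 h Mdh2 was above rest in every cohort (1.14 ± 0.24 in KO1, 0.62 ± 0.10 in KO2 and 0.87 ± 0.10 in KI), a direction that library totals turned in KI alone (-0.013). Mdh1 was below rest where called (-0.81 ± 0.11 in KO2 and -0.60 ± 0.10 in KI; -0.52 ± 0.25 in KO1 did not pass). Citrate synthase Cs was the exception, higher at 6 h in KO2 (0.59 ± 0.10) and KI (0.80 ± 0.08), and lower there with library totals (-0.24 and -0.41).

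Irg1 had the highest rise of the 33 genes. In KO1 WT cultures it had 14.6, 31.1 and 136 CPM at rest, 22446, 21607 and 28931 CPM at 6 h and 16478, 17615 and 11446 CPM at 24 h. KO2 WT libraries ran from 2.53 to 9.65 CPM (median 5.45) at rest, from 20171 to 23901 CPM (median 22019) at 6 h and from 9139 to 11326 CPM (median 10272) at 24 h. Log2 fold changes at 6 h were 9.70 ± 0.86 in KO1, 12.71 ± 0.23 in KO2 and 10.13 ± 0.26 in KI. From 6 h to 24 h it fell in KO2 (-1.44 ± 0.15), while its values in KO1 (-0.70 ± 0.60) and KI (-0.26 ± 0.17) were not called. The gene lies at chr14:103046977-103056573, plus strand (mm10, GENCODE vM21). Acly, which splits exported citrate into acetyl-CoA, was lower than at rest in KI, at -0.69 ± 0.09 at 6 h and -0.23 ± 0.08 at 24 h, and its 6 h values in KO1 (-0.46 ± 0.24) and KO2 (-0.31 ± 0.22) did not pass.

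**Figure D3:**
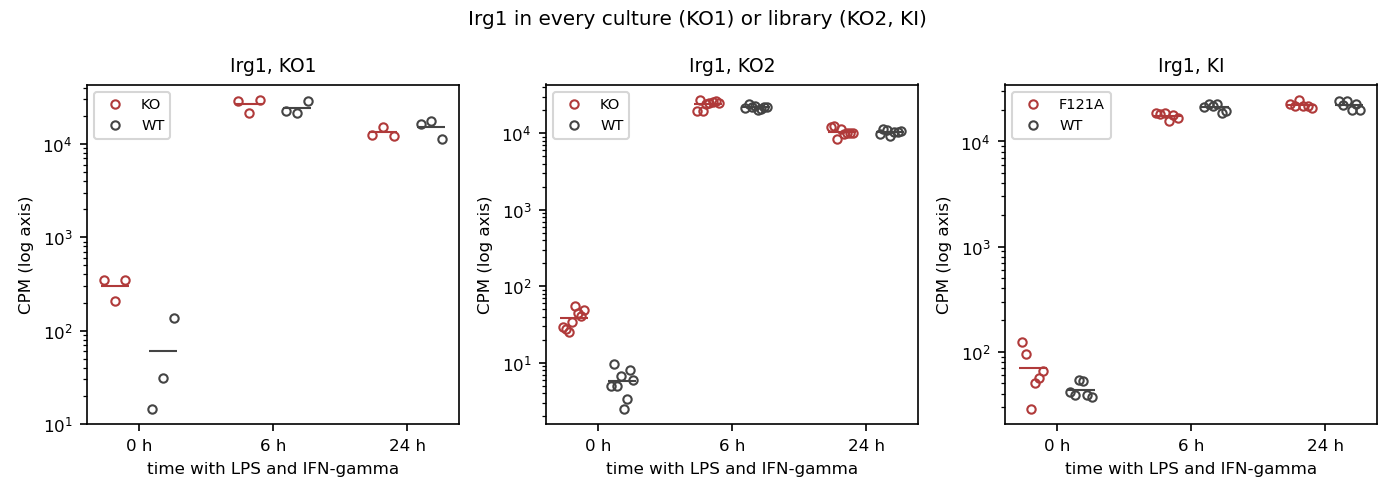
Irg1 in CPM (y axis, log scale) at 0, 6 and 24 h (x axis) in each culture of KO1 and each library of KO2 and KI, mutant (red) left of WT (grey), with lines at the means. At rest the KO points lie above the WT points in KO1 and KO2 and overlap them in KI, and after stimulation all points lie at 8374 CPM or higher.

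Neighbouring pathways and the glycolysis genes outside the list did not follow the 18 genes from uptake to lactate as a block. Of 11 pentose phosphate genes, which branch from glucose phosphate, 2 were higher and 8 lower at 6 h in KO1, 2 and 7 in KO2 and 2 and 8 in KI. H6pd, which starts that pathway in the endoplasmic reticulum, was at -3.18 ± 0.25, -3.06 ± 0.20 and -4.41 ± 0.20. Of 20 other TCA cycle and linked genes, 1, 2 and 3 were higher at 6 h and 9, 14 and 12 lower. The medians of these lists at 6 h were -1.08, -1.06 and -1.24 for the pentose phosphate genes and -0.53, -0.50 and -0.43 for the other TCA cycle genes, and 1.06, 0.85 and 0.77 for the hypoxia genes above. Cytosolic aconitase Aco1 was at -2.31 ± 0.27, -1.91 ± 0.16 and -2.19 ± 0.11. Of 13 genes of pyruvate entry, 3 were higher in each cohort and 6, 7 and 6 lower. Among them the pyruvate dehydrogenase kinases went opposite ways, Pdk3 at 2.84 ± 0.21, 2.56 ± 0.12 and 3.66 ± 0.11 and Pdk2 at -4.18 ± 0.55, -3.73 ± 0.35 and -5.03 ± 0.47. Of the other glycolysis genes 4 of 15, 3 of 14 and 4 of 14 were higher and 7, 8 and 8 lower. The median of this list was -0.91, -0.82 and -0.77. Gpd2, the mitochondrial glycerol phosphate dehydrogenase, was among those that rose, at 3.73 ± 0.28, 4.10 ± 0.11 and 4.63 ± 0.15.

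In KO1, the KO and WT cultures differed in no called gene among the 33 at 0, 6 or 24 h, where 0.0219%, 0.0219% and 0.00730% of all genes were called, and none by genotype and time together (0%). The median log2 fold change of the 33 genes was -0.21, 0.12 and -0.23 at 0, 6 and 24 h, beside 0.01, 0.02 and 0.00 over all genes. By an unadjusted p under 0.05, 846, 655 and 948 of the 13693 genes passed, and DESeq2 called 1 of the 33, Irg1 at rest. The KO cultures had 345, 210.1 and 350.5 CPM of Irg1 at rest, against 14.6, 31.1 and 136 CPM in the WT cultures, so that the groups did not overlap. Its log2 fold change was 2.25 ± 0.62, adjusted p = 0.331 by edgeR. It was called with no filter on low counts (2.26, adjusted p = 0.00403), by DESeq2 (2.25, adjusted p = 0.00641) and without culture 35, the highest of the WT cultures (3.67, adjusted p = 0.0159). The neutrophil marker sums given above were also higher in the KO cultures at rest, and their part was not tested. At 24 h Pfkfb3 had 652, 614 and 654 CPM in KO and 269, 399 and 432 CPM in WT cultures, also without overlap, and its log2 fold change was 0.73 ± 0.39, adjusted p = 0.771. After TMM scaling the cultures did not overlap for 6, 2 and 12 of the 33 genes at 0, 6 and 24 h, of which 4, 2 and 2 were higher in KO, where the cultures did not overlap for 11.4%, 7.83% and 14.8% of all genes tested. At 6 h Irg1 had 26605 ± 4638 CPM in KO and 24328 ± 4008 CPM in WT cultures, a difference within the spread.

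In KO2, Irg1 at rest was higher in KO cells, and 5 glycolytic enzyme genes were lower. KO libraries ran from 25.6 to 56.0 CPM (median 37.8) of Irg1 at rest and WT libraries from 2.53 to 9.65 CPM (median 5.45), with no overlap, and the log2 fold change was 2.52 ± 0.18, adjusted p = 3.75e-17. At 6 h (-0.08 ± 0.14) and 24 h (0.03 ± 0.15) the difference did not pass. The 5 lower genes at rest, Eno1, Gpi1, Pfkp, Pgam1 and Pgk1, lost their calls with neighbouring replicate numbers summed to 3 units (adjusted p = 0.0669, 0.193, 0.173, 0.0546 and 0.134), and all but Eno1 lost them with library totals. Over the 33 genes 2 were higher and 5 lower at rest, 1 and 9 at 6 h and 1 and 6 at 24 h, where 3.84% and 4.45%, 7.62% and 7.75%, and 6.26% and 5.06% of all genes were called higher and lower. The median log2 fold change of the 33 genes was -0.01, 0.03 and -0.14 at 0, 6 and 24 h, beside 0.01, 0.02 and -0.02 over all genes. With library totals the counts were 4 higher and 1 lower, 10 and 6, and 1 and 7. KO and WT also differ by sex in KO2 and by the macrophage marker sums given above, whose list includes Lyz2 of the Cre locus. Pgk1 lies on the X chromosome.

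Pgam1 had the lowest fold change of the glycolytic genes in KO2, and its near-identical copy makes it less certain. At 6 h the KO libraries ran from 86.1 to 137 CPM (median 127) and the WT libraries from 151 to 276 CPM (median 210.0), with no overlap (-1.06 ± 0.16, adjusted p = 2.44e-06). At rest it was -0.52 ± 0.17, with overlap, and at 24 h -0.17 ± 0.17, which did not pass. Eno1, at -0.48 ± 0.12 at rest and -0.65 ± 0.12 at 6 h, and Pgk1, at -0.44 ± 0.14 and -0.60 ± 0.14, were lower at the same times and not called at 24 h. So was Pfkp (-0.39 ± 0.12 and -0.52 ± 0.12), while Gpi1 was lower at all 3 times (-0.35 ± 0.11, -0.46 ± 0.11 and -0.39 ± 0.11). At 6 h Ldha (-0.48 ± 0.13), Slc16a3 (-0.41 ± 0.12), Aldoa (-0.31 ± 0.11) and Hk3 (-0.39 ± 0.12) were lower as well. With neighbouring numbers summed these last 4 were not called (adjusted p = 0.0698, 0.131, 0.191 and 0.216). KO and WT libraries overlapped for all of these genes other than Pgam1 at 6 h. Without the KO library that stood apart at 6 h, Hk3 was -0.30 (adjusted p = 0.0578), and 3 further genes were called higher in KO at 6 h, Pfkfb3 (0.49, adjusted p = 0.0183), Hif1a (0.41, adjusted p = 0.00824) and Ogdh (0.31, adjusted p = 0.0379).

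A few genes of the pathway were higher in KO2 KO cells. Pfkfb3 had 19.6 ± 4.33 CPM in KO and 10.6 ± 3.62 CPM in WT at rest, with no overlap in CPM but with overlap after TMM scaling (0.72 ± 0.21, adjusted p = 0.0202). Hk2 had 50.7 ± 16.6 CPM in KO and 26.7 ± 5.10 CPM in WT at 6 h (0.70 ± 0.16, adjusted p = 0.00091). Its KO libraries ran from 24.4 to 70.3 CPM and its WT libraries from 20.3 to 35.5 CPM, with overlap. At 24 h the TCA cycle genes split: Mdh1 ran from 29.3 to 39.9 CPM (median 33.5) in KO and from 41.2 to 55.2 CPM (median 50.9) in WT, with no overlap (-0.51 ± 0.11, adjusted p = 0.000914). Sdhb was lower (-0.34 ± 0.09), while Idh2 was higher (0.50 ± 0.15). Slc2a6 (-0.38 ± 0.11), Hk3 (-0.42 ± 0.12) and Slc16a3 (-0.43 ± 0.13) were lower at 24 h. Summed neighbours left Mdh1 and Idh2 called at 24 h, and Gpi1 (0.279), Sdhb (0.0685), Slc2a6 (0.1), Hk3 (0.138) and Slc16a3 (0.299) had adjusted p above the threshold.

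**Figure D4:**
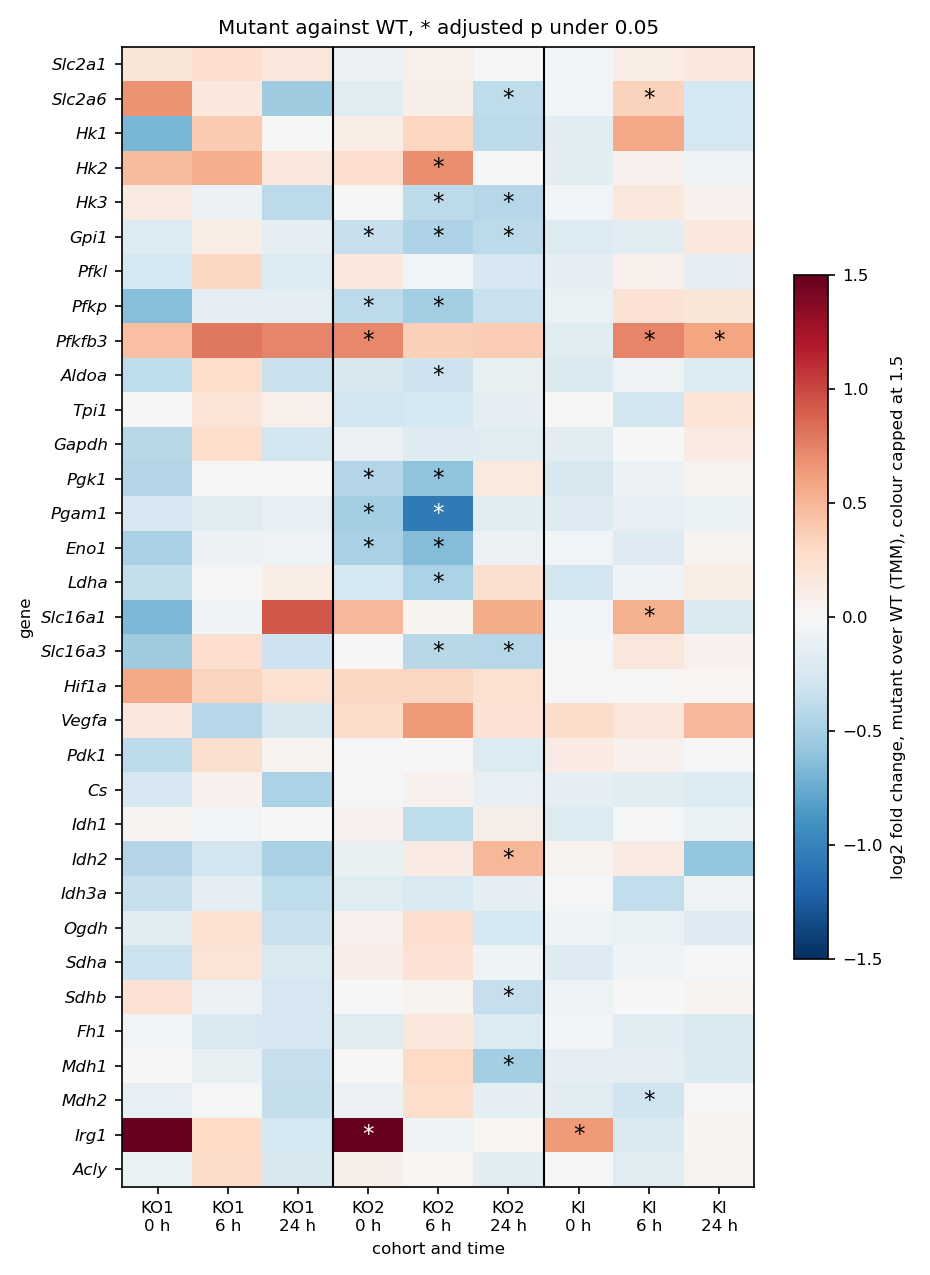
Log2 fold change of mutant over WT after TMM scaling (colour, capped at 1.5) for the 33 genes (rows) in each cohort and time (columns), with a star where the adjusted p is under 0.05. Stars stand on 0 genes in KO1, on 7, 10 and 7 in KO2 at 0, 6 and 24 h, mostly blue (lower in KO), and on 1, 4 and 1 in KI.

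Among other pathway genes in KO2, the pentose phosphate genes Pgd (-0.51 ± 0.10), Taldo1 (-0.53 ± 0.10) and Tkt (-0.37 ± 0.09) were lower in KO at rest and Rpe (0.42 ± 0.14) was higher, 4 called of 11. G6pdx, the X-linked gene of the entry enzyme of that pathway, was lower at 6 h (-0.31 ± 0.10) and 24 h (-0.39 ± 0.10). In the hypoxia list 1 gene was lower at rest, 2 were higher and 2 lower at 6 h and 3 were higher at 24 h, of 19. The repressor gene Bhlhe40 was higher at 6 h (1.08 ± 0.13) and 24 h (1.23 ± 0.14), and the peptide hormone gene Adm at 24 h (2.04 ± 0.32). Got2, the mitochondrial aspartate transaminase of the malate shuttle, was lower at 24 h (-0.81 ± 0.13), and its cytosolic partner Got1 was higher at rest (0.42 ± 0.09) and 6 h (0.54 ± 0.09). In KO1 no gene of these lists was called at any time.

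In KI, F121A cells differed from WT mainly in Pfkfb3 after stimulation. At 6 h the F121A libraries ran from 129 to 166 CPM (median 148) and the WT libraries from 85.2 to 100.2 CPM (median 90.1), with no overlap (0.74 ± 0.12, adjusted p = 3.31e-05). At 24 h they ran from 828 to 1133 CPM (median 1022) in F121A and from 495 to 889 CPM (median 683) in WT, with overlap (0.59 ± 0.12, adjusted p = 0.000897). At rest the difference did not pass (-0.18 ± 0.13). The WT libraries at 24 h fell into odd replicate numbers (495 to 567 CPM) and even ones (799 to 889 CPM), and the labels do not say what the numbers stand for. The gene lies at chr2:11471433-11554077, minus strand (mm10). Over the 33 genes 1 was higher and 0 lower at rest, 3 and 1 at 6 h and 1 and 0 at 24 h, where 2.37% and 0.574%, 8.01% and 3.49%, and 3.42% and 3.78% of all genes were called higher and lower.

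The median log2 fold change of the 33 genes was -0.07, -0.02 and 0.02 at 0, 6 and 24 h, beside 0.01, 0.02 and 0.00 over all genes. The Pfkfb3 calls at 6 h and 24 h held under every alternative run, and the other called genes of KI were closer to the threshold. At 6 h Slc2a6 had 2736 ± 92.2 CPM in F121A and 2217 ± 447 CPM in WT (0.34 ± 0.11, adjusted p = 0.0413). Slc16a1 was higher (0.53 ± 0.16, adjusted p = 0.0258) and Mdh2 lower (-0.30 ± 0.10, adjusted p = 0.0421). The call was lost for Slc2a6 in 5 of 9 alternatives (adjusted p from 0.0505 to 0.195), for Slc16a1 in 3 of 9 alternatives (adjusted p from 0.0557 to 0.137) and for Mdh2 in 3 of 9 alternatives (adjusted p from 0.062 to 0.0895). Without the WT library whose labels disagree on the time, Mdh2 had an adjusted p of 0.0620. With library totals 1 gene was higher and 1 lower at 6 h. At rest Irg1 ran from 28.8 to 123 CPM (median 60.7) in F121A and from 37.2 to 53.3 CPM (median 40.4) in WT, and the groups overlapped (0.64 ± 0.18, adjusted p = 0.0401). Without F121A replicate 5, which stood apart on 15 of the 33 genes, it was 0.61 with an adjusted p of 0.0820, and with the replicate number as a block 0.61 (adjusted p = 0.0503). The Irg1 call was also lost with RLE size factors (adjusted p = 0.0531), with neighbouring replicate numbers summed (0.206) and with the compared groups alone (0.207). Of the other pathway genes, H6pd was higher at rest (0.63 ± 0.13) and lower at 24 h (-0.73 ± 0.15), Got1 (-0.82 ± 0.15) and Bhlhe40 (-0.57 ± 0.13) were lower at 6 h, and Pcx, which makes oxaloacetate from pyruvate, was lower at 24 h (-1.02 ± 0.26). Macrophage marker sums were 31399 to 33084 CPM in F121A and 34133 to 38164 CPM in WT libraries at 6 h.

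**Figure D5:**
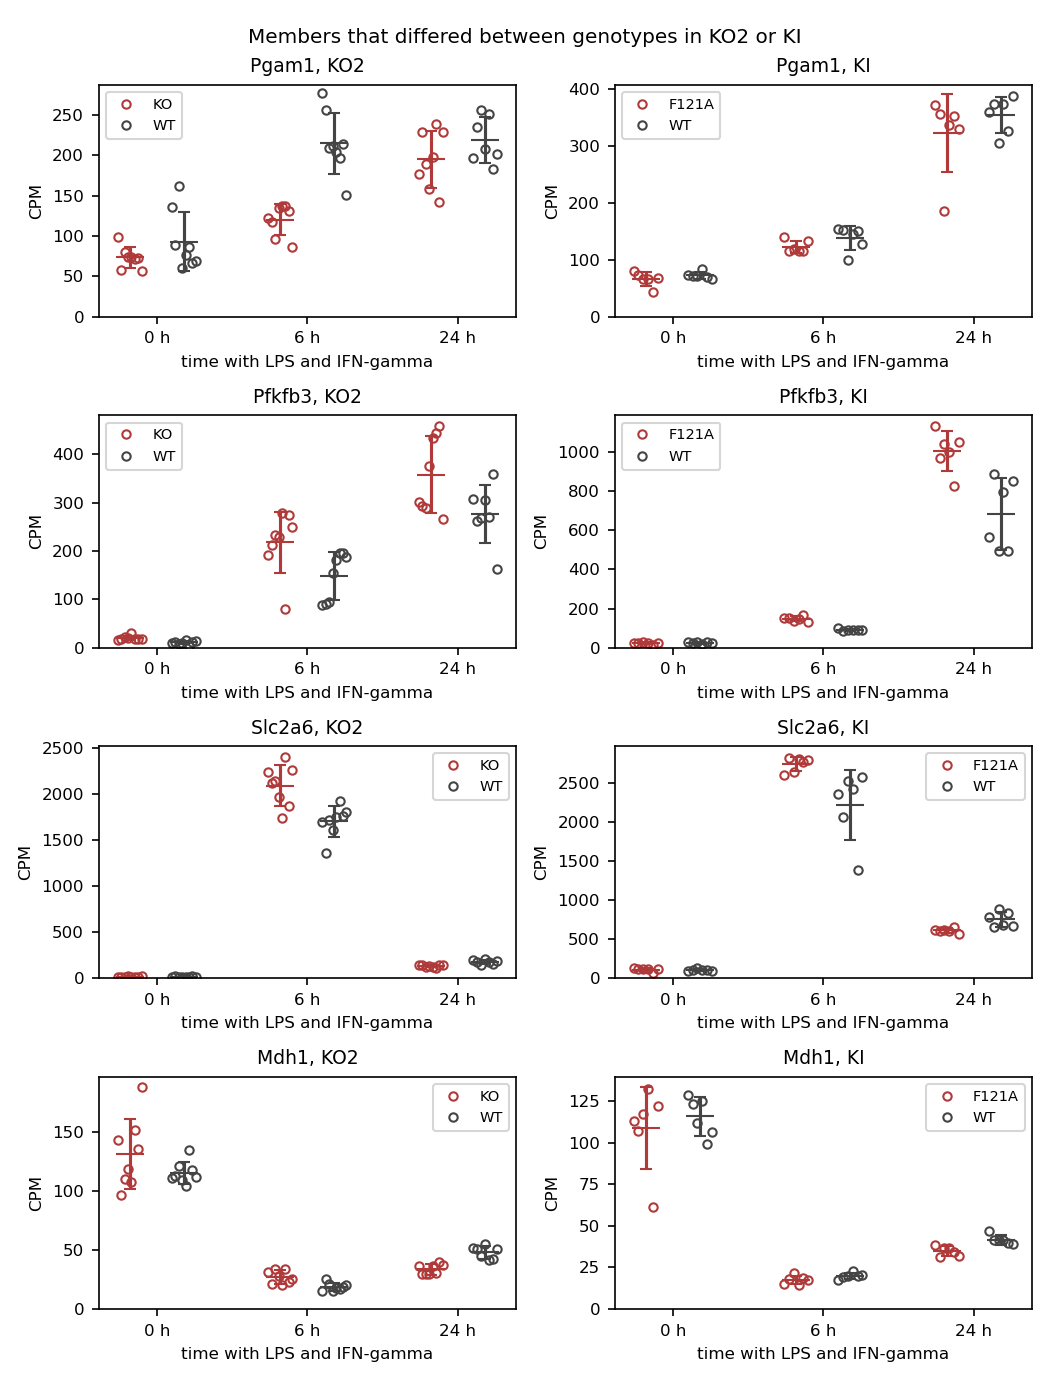
Pgam1, Pfkfb3, Slc2a6 and Mdh1 in CPM (y axis) at 0, 6 and 24 h (x axis) in each library of KO2 (left) and KI (right), mutant (red) left of WT (grey), with mean and SD bars. The KO points of Pgam1 lie below the WT points at 6 h in KO2, the KO points of Mdh1 below the WT points at 24 h, and the F121A points of Pfkfb3 above the WT points at 6 h in KI.

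Whether the genotype difference changed with time was tested jointly over 6 h and 24 h. In KO2 7 of the 33 genes were called, beside 11.9% of all genes. Irg1 led them: its log2 fold change of KO over WT changed by -2.60 at 6 h and -2.50 at 24 h relative to rest (adjusted p = 9.33e-14). For Mdh1 the change was 0.30 at 6 h and -0.50 at 24 h (adjusted p = 0.000851). Ldha (adjusted p = 0.0125), Pgk1 (0.0169), Pgam1 (0.0192), Ogdh (0.0303) and Sdhb (0.0459) were the others. The Sdhb call was lost with the replicate block (adjusted p = 0.0504), RLE size factors (0.0764), no filter (0.15) and summed neighbours (0.221), and the Ogdh call with no filter (0.0678) and summed neighbours (0.104). In KI 2 genes were called, beside 8.29% of all genes: Pfkfb3, 0.92 at 6 h and 0.77 at 24 h above its resting difference (adjusted p = 0.00124), and Slc2a6, with changes of 0.39 and -0.22 (adjusted p = 0.0333). The Slc2a6 call was lost with no filter (adjusted p = 0.0737) and with library totals (0.0907). Its lowest WT library at 6 h, replicate 5, had 1381 CPM, and the highest had 2566 CPM. At 24 h its WT libraries ran from 783 to 880 CPM for odd replicate numbers and from 657 to 687 CPM for even ones.

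In the mutants the genes moved over time as well. KO cells of KO1 had 24.8, 17.6 and 24.3 CPM of Slc16a3 at rest, 50.8, 57.6 and 55.3 CPM at 6 h and 203, 177 and 219 CPM at 24 h. Idh1 had 319.7 ± 34.6, 8.12 ± 1.72 and 18.2 ± 5.60 CPM in KO cells of KO2 (n = 8). In F121A cells the 18 genes from uptake to lactate took 0.455 ± 0.0901%, 1.02 ± 0.0279% and 2.82 ± 0.0957% of all counts at 0, 6 and 24 h. At 24 h their range, from 2.70% to 2.93%, lay within that of WT, from 2.60% to 2.95%.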

How the data were processed

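RNA from 137 libraries of mouse macrophages was read by Smart-Seq2 with paired 38-base reads, which gives no strand and no molecular identifiers, per the labels' protocols. The authors aligned reads with TopHat to mm10 and counted them per gene with HTSeq, per the submitters' processing notes. The annotation is not given in the sources used here. The deposited values are raw counts per gene, and the libraries of KO1 hold 1898574 to 6579185 counts, those of KO2 1448218 to 15627379 and those of KI 3574158 to 11786453. Precision intervals would cover counting error only.

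Repeats of a KO1 culture were summed. Each cohort was fitted by edgeR 4.0.16 (R 4.3.3) with filterByExpr, TMM and 6 group means, and Benjamini-Hochberg adjustment ran over the 13693, 10794 and 11500 genes that passed. The standard error is the fold change over the root of F. Tested on simulated counts for the mutant against WT at 24 h, 16%, 79% and 71% of 2-fold and 69%, 96% and 94% of 4-fold changes were called in KO1, KO2 and KI. Alternatives included DESeq2 1.42.0, RLE size factors, no filter, a replicate block, and left-out libraries. Copies were sought with minimap2 2.31-r1302 (identity of at least 0.95 over 100 bases or more).

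All 33 genes are named. Of the other pathway genes, up to 3 called ones of smallest adjusted p per list and comparison could be named, or all where a list has at most 5 calls. The genes and lists were chosen with earlier results of these data known. In KO1 the titles repeat a culture number at each time, and deviations of same-numbered samples correlated at 0.187 to 0.528 (3 of 3 pairs over 0.1) between 6 h and rest in WT and at -0.059 to 0.357 (2 of 3) between 24 h and rest. The number is thus taken to pair KO1 samples over time, the reported fit is without this block, and a reported call that the block ends is named. In KO2 and KI the replicate numbers were not taken to pair samples.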

Additional observations from a re-analysis of the deposited data

Results flagged for a closer look

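For 54 of 396 groups of 6 to 8 libraries, 1 library lay farther from the others than a Dixon criterion allows, where chance gives about 1 in 20 groups. The criterion was applied to CPM before TMM. F121A replicate 5 at rest had a TMM factor of 1.18, against 1.70 to 1.94 in the other libraries of its group, so that TMM raises its levels relative to theirs. In CPM it was the lowest of its group for 31 of the 33 genes, with a median of 56.9% of the median of the other libraries, and for 15 genes it met the criterion. From uptake to lactate it had Slc2a6 at 63.9 CPM (highest of the group 133), Hk3 at 55.2 CPM (highest of the group 118), Gpi1 at 168 CPM (highest of the group 318), Pfkl at 28.5 CPM (highest of the group 69.9), Pfkp at 43.6 CPM (highest of the group 75.4) and Pfkfb3 at 13.4 CPM (highest of the group 26.1). Of the later enzymes it had Aldoa at 1348 CPM (highest of the group 2477), Gapdh at 86.6 CPM (highest of the group 181), Pgam1 at 42.8 CPM (highest of the group 79.9), Eno1 at 197 CPM (highest of the group 387), Ldha at 372 CPM (highest of the group 783) and Slc16a3 at 33.7 CPM (highest of the group 53.4), and of the TCA cycle Idh1 at 384 CPM (highest of the group 718), Sdhb at 99.6 CPM (highest of the group 181) and Mdh1 at 61.2 CPM (highest of the group 132). 

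KO replicate 7 at 6 h in KO2 was the lowest of its group for Pfkfb3 at 80.8 CPM (highest of the group 277), Pdk1 at 6.86 CPM (highest of the group 29.1), Cs at 52.6 CPM (highest of the group 93.6) and Acly at 6.86 CPM (highest of the group 33.3), and the highest for Eno1 at 597 CPM (lowest of the group 435), Idh2 at 10.7 CPM (lowest of the group 5.94) and Mdh2 at 74.1 CPM (lowest of the group 45). WT replicate 5 of KI at 6 h stood apart for Hk3 (lowest, 1057 CPM in a group from 1057 to 1765), Aldoa (lowest, 935 CPM in a group from 935 to 1334), Slc16a1 (highest, 9.06 CPM in a group from 4.06 to 9.06) and Hif1a (highest, 967 CPM in a group from 675 to 967). F121A replicate 3 at 24 h was the lowest for Pgk1 at 594 CPM (highest of the group 882), Pgam1 at 186 CPM (highest of the group 371) and Slc16a3 at 923 CPM (highest of the group 1640.5). WT replicate 5 of KI at rest was the highest for Aldoa at 2873 CPM (lowest of the group 2306), Pdk1 at 28.4 CPM (lowest of the group 18.4) and Sdha at 347 CPM (lowest of the group 296). In KO2 at rest WT replicate 8 was the highest for Idh2 at 60.9 CPM (lowest of the group 48.9), Idh3a at 37.2 CPM (lowest of the group 21.5) and Fh1 at 45.6 CPM (lowest of the group 25.8).

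Other libraries stood apart for 1 or 2 genes each. In F121A libraries of KI it was Hk2 at 6 h (highest, replicate 4, 85.1 CPM). In WT libraries of KI they were Slc2a6 at 0 h (highest, replicate 3, 137 CPM), Pgam1 at 0 h (highest, replicate 4, 83.7 CPM), Pfkfb3 at 6 h (highest, replicate 1, 100.2 CPM), Sdhb at 6 h (highest, replicate 4, 46.8 CPM), Hif1a at 24 h (highest, replicate 1, 585 CPM), Mdh1 at 24 h (highest, replicate 1, 47.1 CPM), Idh1 at 24 h (lowest, replicate 4, 6.89 CPM) and Mdh2 at 24 h (lowest, replicate 6, 83.2 CPM). In KO libraries of KO2 they were Eno1 at 0 h (highest, replicate 1, 569.8 CPM), Ldha at 0 h (highest, replicate 1, 1615 CPM), Pfkfb3 at 0 h (highest, replicate 6, 29.6 CPM), Pfkl at 0 h (highest, replicate 7, 112 CPM), Hk3 at 0 h (highest, replicate 9, 144 CPM), Idh3a at 24 h (lowest, replicate 2, 5.82 CPM) and Aldoa at 24 h (lowest, replicate 4, 4285 CPM). In WT libraries of KO2 they were Hk3 at 0 h (lowest, replicate 4, 67.5 CPM), Idh2 at 24 h (lowest, replicate 4, 4.58 CPM) and Ogdh at 24 h (highest, replicate 5, 75.1 CPM).

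The difference between genotypes itself changed with time for 9 genes, by edgeR's joint test over 6 h and 24 h (Benjamini-Hochberg adjusted p in brackets). They were Pgk1 (0.0169), Pgam1 (0.0192), Ldha (0.0125), Ogdh (0.0303), Sdhb (0.0459), Mdh1 (0.000851) and Irg1 (9.33e-14) in KO2 and Slc2a6 (0.0333) and Pfkfb3 (0.00124) in KI. In KO2 the sexes of the genotypes differ at all 3 times.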

How the results depend on the processing

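Of 218 recomputed counts of called genes among the 33, 195 were within 1.5 times the value reported, 12 were lower and 11 higher. In KO1 at rest the count was 0, and 1 with no filter or DESeq2 and 2 with single libraries as units. With single libraries KO1 gave 1 at 24 h and 1 for genotype by time, and over all genes 273, 85 and 196 calls at 0, 6 and 24 h against 3, 3 and 1. Leaving out each KO1 culture in turn gave 0 to 1 at rest (1 without replicate 35), 24 to 27 calls in WT at 6 h and at 24 h against rest, and 20 to 26 between 6 h and 24 h. With neighbouring replicate numbers summed, KO2 gave 2, 6 and 2 at 0, 6 and 24 h (7, 10 and 7 reported), and KI 0, 2 and 2 (1, 4 and 1 reported). Library totals and the left-out KO2 and KI libraries were chosen after seeing the data. Library totals gave 16 at 6 h and 14 for genotype by time in KO2, and 2 at 6 h in KI. In KI at rest RLE size factors, the replicate block, the compared groups alone and leaving out F121A replicate 5 each gave 0. In KI at 6 h no filter and the compared groups alone gave 2, and DESeq2 gave 2 at 24 h and 6 for genotype by time (2 reported). Without KO replicate 7 KO2 gave 12 at 6 h and 10 for genotype by time. With the culture number as a block KO1 gave 26, 27 and 26 calls in WT over time (27, 27 and 25 reported), and no reported KO1 call other than that of Vegfa at 6 h was lost. In KO2 and KI no label says that a replicate number pairs samples. Deviations of same-numbered libraries correlated at -0.135 to 0.361 between KO and WT at rest in KO2 and, between F121A and WT, at -0.147 to 0.092 in KI (0 of 6 over 0.1). In KI they were at -0.021 to 0.188 between F121A and WT at 6 h (5 of 6 over 0.1). Between 24 h and 6 h in F121A they were at 0.065 to 0.263 (5 of 6), and between 24 h and rest in WT at -0.139 to 0.074 (0 of 6). With the replicate block the KO2 counts were 7, 10 and 8. The Becn1 difference was weaker in 16 of 66 refits. Directions turned only with library totals: at 6 h against rest Hk1 (-0.10), Ldha (-0.069) and Vegfa (-0.51) in KO1, Aldoa (-0.28), Cs (-0.24) and Pdk1 (-0.00323) in KO2, and Cs (-0.41), Eno1 (-0.30), Hk1 (-0.39) and Pdk1 (-0.38) in KI. At 24 h they were Cs (-0.49), Pdk1 (-0.083) and Sdhb (-0.22) in KO1, Cs (-0.078) and Sdhb (-0.015) in KO2, and Cs (-0.64), Mdh2 (-0.013) and Sdhb (-0.60) in KI. TMM effective sizes moved 431 of 594 group means in CPM by more than 1 SD. The cause of these changes was not tested, and 3 cultures per group in KO1 limit what that cohort can call.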

Other observations

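In KI WT libraries at 24 h, odd and even replicate numbers did not overlap for 22 of the 33 genes, against 7 at rest and 4 at 6 h, and in F121A libraries for 3, 8 and 6 at 0, 6 and 24 h. Over all genes tested the shares that did not overlap were 7.90%, 9.43% and 12.5% in F121A and 12.8%, 9.296% and 23.4% in WT at 0, 6 and 24 h. The numbers are those of the titles, and no label says what they stand for.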
